A study of Mus musculus with 12 samples.

Results

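Fatty acid oxidation was examined through 31 of the 32285 genes in the deposited matrices. The genes were chosen by name for their role: the regulators Ppara and Ppargc1a, the carnitine shuttle (Cpt1a, Cpt2, Slc25a20), the mitochondrial oxidation spiral (Acadvl, Acadl, Acadm, Acads, Hadha, Hadhb, Hadh, Echs1, Acaa2), electron transfer (Etfa, Etfb, Etfdh), peroxisomal oxidation (Ehhadh, Acaa1a, Acaa1b), ketone body formation (Bdh1), fuel choice (Pdk4), acyl-CoA handling (Acsl1, Acot1, Acot2), lipid droplet coats (Plin2, Plin4, Plin5) and further targets of the receptor PPARα (Angptl4, Vnn1, Fgf21). All 31 symbols were found, each once.

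In the suckling liver, fat from milk is a main fuel. Long-chain fatty acids are activated to acyl-CoA, carried into mitochondria as carnitine esters and shortened in repeated cycles whose electrons pass through the electron transfer flavoprotein to the respiratory chain, and the acetyl-CoA that is formed feeds ketone bodies. PPARα, a nuclear receptor that is activated by fatty acids, induces most of these genes, and several of its targets, such as Angptl4, Pdk4 and Plin2, also respond to other receptors and to low oxygen.

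Livers came from C57BL6/J mice at P11. In the anemic mice (n = 6), 20 µL of blood per g of body weight was drawn from the facial vein on alternate days from P2 to P10, by which the hematocrit went from 45 to 60% down to 20 to 24%. Control mice (n = 6) had needle sticks without blood removal. The liver was dissociated and spun at low speed before 10x Genomics single-cell RNA sequencing. Of 207537 barcodes, 206146 cells were kept (14184 to 21186 per mouse), and each mouse had 46252146 to 74545930 unique molecular identifiers (UMIs, counted transcript molecules). Between 51 and 121 barcodes were shared by any pair of libraries, at most 0.694% of the smaller one. The methods describe males and females in equal number. The labels give no sex, and summed Y-linked expression was 7.90 or more on the log2 CPM scale in 2 control mice (1 and 2) and 4 anemic mice (1, 3, 5 and 6) and at most 2.33 in the others.

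Cells were clustered and 14 classes were named from fixed marker genes, each with the ending -like. The hepatocyte-like class held 18021 cells (7572 control, 10449 anemia) and its 10 markers, among them Alb and Apoa1, summed to 174114 to 188997 CPM in control and 130730.0 to 186817 CPM in anemic mice. The 15313 cells of unnamed clusters, 8.63% of control and 6.34% of anemic cells, entered no comparison. Within a class, UMIs were summed per mouse and given as CPM (UMIs scaled to a common class total) without mitochondrial and ribosomal protein genes. CPM from a 3' assay are compared here between mice and cell classes for the same gene, and not between genes.

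Promoters are shown for 5 members whose levels differed between the groups in endothelial-like cells or in parts of the hepatocyte-like class, because 3 of them (Pdk4, Plin2, Cpt1a) are PPAR targets and because Plin2 and Cpt1a moved in opposite directions in endothelial-like cells. Each is the 250 bases before the RefSeq transcription start (GRCm38.p6), 5′ to 3′ on the strand of the gene. Capitals mark AGGTCA, a single binding element of nuclear receptors, and ACGTG or GCGTG, the core bound by hypoxia-inducible factors, on either strand.
Pdk4, chr6:5496279-5496528, minus strand: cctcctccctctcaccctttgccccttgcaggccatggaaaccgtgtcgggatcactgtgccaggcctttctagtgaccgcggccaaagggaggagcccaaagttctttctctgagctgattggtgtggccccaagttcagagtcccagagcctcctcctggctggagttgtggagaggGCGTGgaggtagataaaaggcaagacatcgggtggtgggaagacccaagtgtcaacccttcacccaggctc
Plin2, chr4:86670060-86670309, minus strand: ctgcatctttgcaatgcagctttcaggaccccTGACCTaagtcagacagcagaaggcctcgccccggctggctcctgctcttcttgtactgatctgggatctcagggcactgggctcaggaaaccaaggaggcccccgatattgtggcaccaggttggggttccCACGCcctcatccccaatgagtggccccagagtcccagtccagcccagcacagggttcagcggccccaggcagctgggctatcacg
Etfdh, chr3:79628768-79629017, minus strand: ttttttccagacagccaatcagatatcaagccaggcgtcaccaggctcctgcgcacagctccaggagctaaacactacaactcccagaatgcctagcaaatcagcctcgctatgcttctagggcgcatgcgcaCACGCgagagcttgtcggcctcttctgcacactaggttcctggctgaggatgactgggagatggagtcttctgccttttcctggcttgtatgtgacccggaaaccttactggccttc
Cpt1a, chr19:3323051-3323300, plus strand: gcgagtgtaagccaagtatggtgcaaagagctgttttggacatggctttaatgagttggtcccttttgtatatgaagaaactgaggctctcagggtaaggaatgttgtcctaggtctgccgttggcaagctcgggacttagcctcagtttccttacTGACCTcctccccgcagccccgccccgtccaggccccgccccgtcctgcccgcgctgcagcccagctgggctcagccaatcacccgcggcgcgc
Hadhb, chr5:30155003-30155252, plus strand: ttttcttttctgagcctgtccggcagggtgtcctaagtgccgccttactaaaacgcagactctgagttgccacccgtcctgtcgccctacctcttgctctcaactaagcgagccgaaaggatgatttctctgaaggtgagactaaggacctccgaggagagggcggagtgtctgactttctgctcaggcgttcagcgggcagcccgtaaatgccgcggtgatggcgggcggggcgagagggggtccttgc

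The Pdk4 window held GCGTG 71 to 67 bases before the start. Plin2 had the reverse complement of AGGTCA at 218 to 213 bases and of GCGTG at 86 to 82 bases, Etfdh had the latter at 117 to 113 bases, and Cpt1a had the former at 94 to 89 bases. GENCODE starts Cpt1a at chr19:3322334 and Etfdh, on the minus strand, at chr3:79629500. By those positions the windows of Cpt1a and Etfdh lie inside the genes. No letters of these motifs were in the Hadhb window, inside which the annotated start of Hadha on the other strand lies. AGGTCA on either strand was in 6 of the 28 members with a promoter sequence and in 14% of all 32851 mouse promoters of this length. The direct repeat, AGGTCA followed by any base and AGGTCA again, was in 0 of 28 members and 0.0335% of all promoters, and ACGTG or GCGTG in 17 of 28 members and 38.6% of all promoters. The repeat contains the single element. Promoters of Acaa2, Angptl4 and Vnn1 are not shown.

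Control levels, as CPM without TMM scaling, were highest in hepatocyte-like cells for 25 of the 31 members. Acadl, the long-chain acyl-CoA dehydrogenase, was at 633 ± 20.5 CPM (SD, n = 6) there and at 282 CPM in cholangiocyte-like cells, the next class. Ppara was at 329 ± 40.5 CPM in hepatocyte-like and 19.9 CPM in stellate-like cells. The 6 exceptions were the coactivator Ppargc1a (pre-B-like, 83.5 against 37.1 CPM in hepatocyte-like cells), the carnitine carrier Slc25a20 (dendritic-like, 329 against 87.6 CPM), the thioesterases Acot1 (macrophage-like, 169 against 3.36 CPM) and Acot2 (T-like, 93.8 against 36.5 CPM), the droplet coat Plin2 (macrophage-like, 425 against 271 CPM) and the pantetheinase Vnn1 (cholangiocyte-like, 15.5 against 11.1 CPM). The 25 include Plin4, with few UMIs at 0.632 CPM against 0.448 CPM in endothelial-like cells, and Angptl4, at 30.8 CPM against 26.2 CPM in stellate-like cells. No share over all genes is given for the 25, so the count is not read as particular to the members. These levels are a description, without a test, because the classes are clusters of the same cells.

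**Figure D1:**
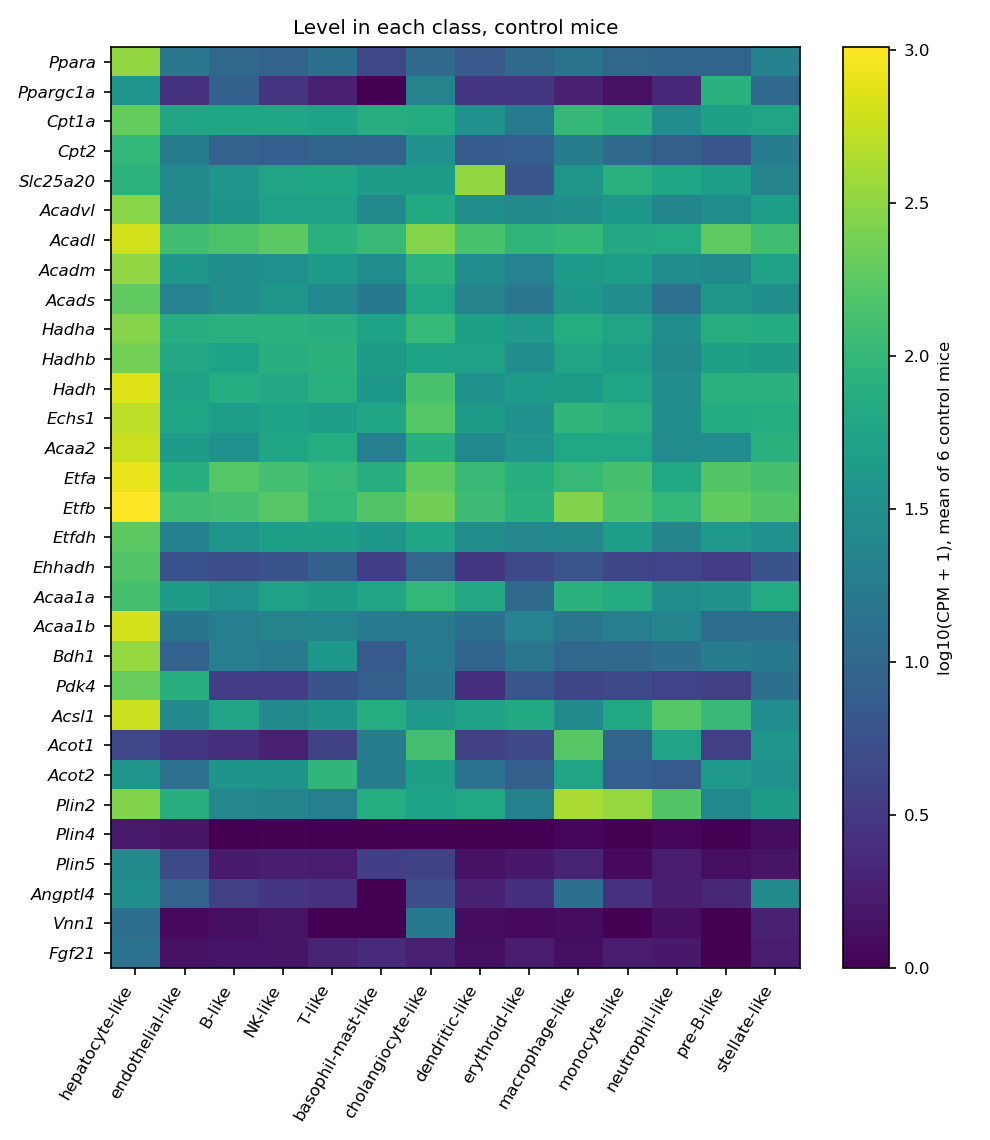
Mean CPM of each of the 31 genes (rows) in each of the 14 cell classes (columns) in the 6 control mice, as log10(CPM + 1) in colour. The hepatocyte-like column is the highest in 25 rows, and the macrophage-like column is the highest for Acot1 and Plin2.

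UMIs of hepatocyte marker genes were read in every class. The 10 hepatocyte markers in B-like cells stood at 3.30% of their hepatocyte-like level in control and 2.19% in anemic mice, and in endothelial-like cells at 1.97% and 1.18%. Scaled to these markers, the control level of the peroxisomal thiolase Acaa1b in the classes outside hepatocyte-like was 0.616 to 1.09 times what hepatocyte RNA at that share would give, and that of Ehhadh 0.538 to 1.73 times. For such members a level in another class is not read as expression by that class. In anemic mice the ratios were 0.222 to 1.19 for Acaa1b and 0.884 to 6.24 for Ehhadh. Free RNA and doublets, which were kept, can both bring in such UMIs, and the part of each was not tested. Cluster 21 of the B-like class was 73% called doublets and cluster 26 of the endothelial-like class 66.8%, each with hepatocyte markers as its next class. The whole cholangiocyte-like class was 75.3% called doublets and the whole stellate-like class 61.1%. In endothelial-like cells of control mice the same ratio was 13.8 for Angptl4, 19.4 for Pdk4 and 14.3 for Plin2.

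In the summed hepatocyte-like cells, 8 of 9 members of the oxidation spiral (not Hadha) and all 3 of electron transfer were higher in anemia, and the entry enzyme Cpt1a, the fuel switch Pdk4 and the droplet coat Plin2 were lower. Fitted in the mitochondria-rich cluster and in the other clusters of the class by themselves, as described further on, these 12 spiral and electron transfer members had median log2 fold changes of 0.06 and -0.04, and Acadl, Acadm, Acads and Hadh were below 0 in both. Of the 31 members, 30 averaged 5 or more UMIs across the mice (Plin4 did not) and 18 were called by edgeR's quasi-likelihood test at a Benjamini-Hochberg adjusted p below 0.05 over all 12030 genes tested, 13 higher and 5 lower. Over all tested genes 55.3% were called (27.9% higher, 27.4% lower), so the count of members was near the background. The median log2 fold change was 0.12 over the members and -0.03 over all genes. DESeq2 and limma with quality weights called 18 members each. The p-values measure the spread between the mice of each group, and changes are given below as log2 fold changes, anemia over control, ± their standard error with the adjusted p of edgeR.

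**Figure D2:**
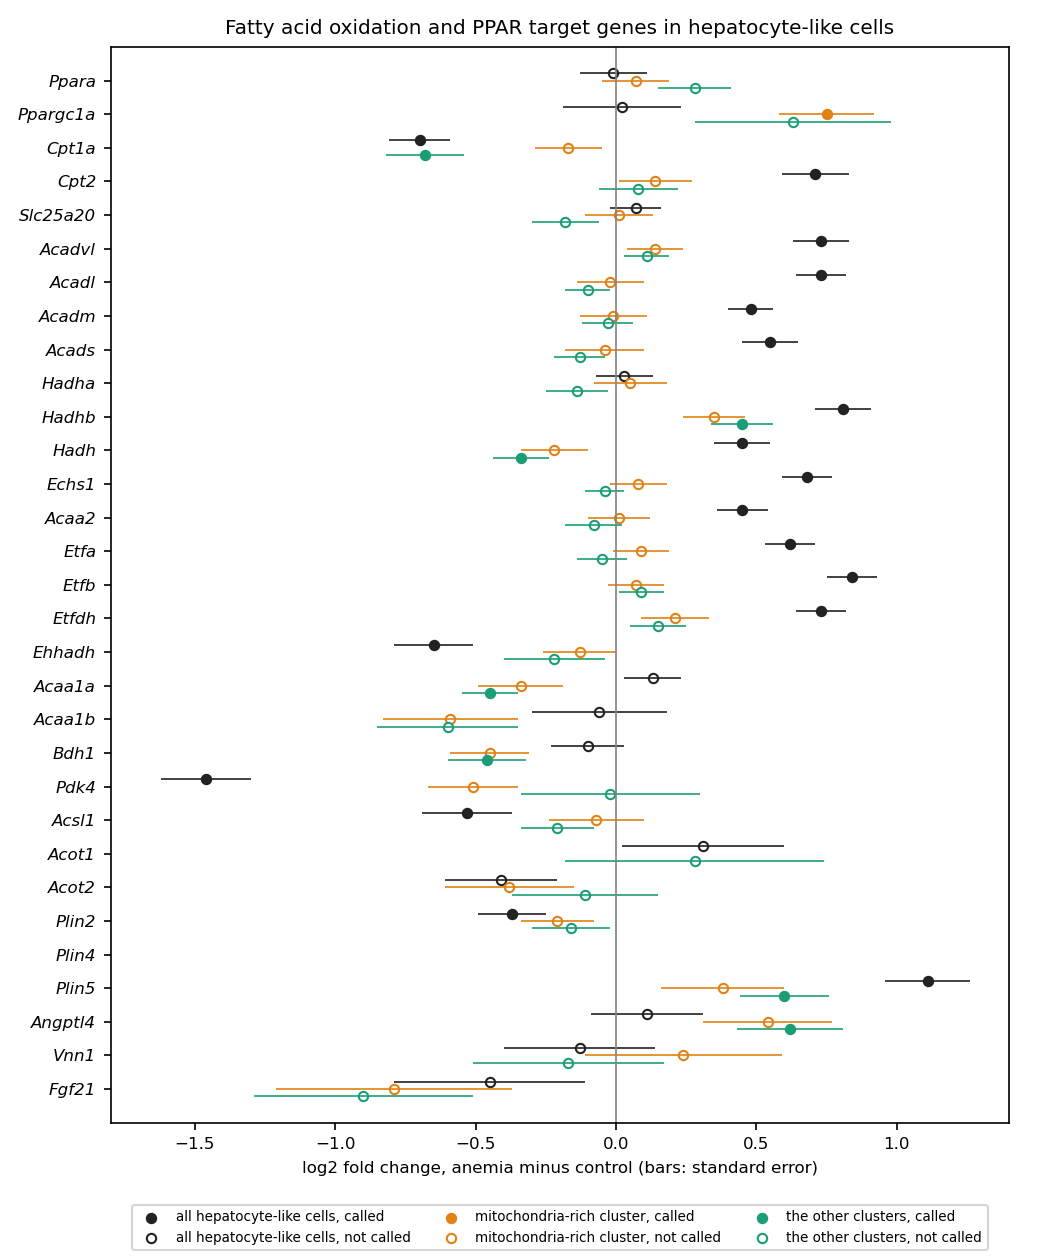
Log2 fold change (anemia over control) with its standard error for each member in all hepatocyte-like cells, in the mitochondria-rich cluster and in the other hepatocyte-like clusters, with called members filled. Acadl sits at 0.73 in the summed class but at -0.02 and -0.10 in its parts, while Hadhb stays above 0 at 0.81, 0.35 and 0.45.

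In the carnitine shuttle, Cpt1a, which makes acylcarnitine at the outer mitochondrial membrane, was at 138 to 201 CPM (median 169) in control mice and 95.6 to 125 CPM (median 98.1) in anemic mice. Every anemic mouse was below every control mouse, and the log2 fold change was -0.70 ± 0.11 (adjusted p = 4.00e-05). Cpt2, which turns acylcarnitine back into acyl-CoA inside the mitochondrion, went the other way, with 65.9 to 104 CPM (median 83.6) in control mice and 106 to 161 CPM (median 139) in anemic mice, without overlap, and rose by 0.71 ± 0.12 (adjusted p = 1.42e-04). Within both kinds of hepatocyte-like cells, the mitochondria-rich cluster and the other clusters, Cpt2 was not called, at 0.14 ± 0.13 (adjusted p = 0.622) and 0.08 ± 0.14 (adjusted p = 0.786), and Cpt1a kept its call in the latter alone. The carrier between them, Slc25a20, was not called at 0.07 ± 0.09 (adjusted p = 0.554).

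In the oxidation spiral, 8 of 9 members rose in the summed class. Acadvl, the dehydrogenase for very long chains, was at 229 to 302 CPM (median 261) in control mice and 383 to 504 CPM (median 423) in anemic mice, a log2 fold change of 0.73 ± 0.10 (adjusted p = 8.73e-06). The long-chain dehydrogenase Acadl was at 502 to 594 CPM (median 567) in control mice and 796 to 1029.6 CPM (median 949) in anemic mice, with 0.73 ± 0.09 (adjusted p = 2.51e-06). The medium-chain enzyme Acadm was at 268 to 294 CPM (median 283) in control mice and 337 to 424 CPM (median 407) in anemic mice, with 0.48 ± 0.08 (adjusted p = 1.26e-04). The groups did not overlap for any of these dehydrogenases. Acads, which takes short chains, was at 150.1 to 214 CPM (median 160.2) in control mice and 229 to 269 CPM (median 239) in anemic mice and rose by 0.55 ± 0.10 (adjusted p = 1.40e-04), also without overlap. None of these dehydrogenases was called in either kind, and Acadl, Acadm and Acads were below 0 in both.

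The later steps of the spiral split at the trifunctional protein. Its β subunit Hadhb, the long-chain thiolase, was at 194 to 235 CPM (median 211) in control mice and 276 to 429 CPM (median 378) in anemic mice and rose by 0.81 ± 0.10 (adjusted p = 5.68e-06), whereas its α subunit Hadha, from the neighbouring gene, was at 232 to 289.7 CPM (median 249) in control mice and 194 to 305 CPM (median 267) in anemic mice with overlapping groups and 0.03 ± 0.10 (adjusted p = 0.813). The hydratase Echs1 was at 392 to 521 CPM (median 447) in control mice and 703 to 807 CPM (median 707) in anemic mice, a rise of 0.68 ± 0.09 (adjusted p = 8.87e-06). For the short-chain dehydrogenase Hadh the values were 587 to 716 CPM (median 634) in control mice and 676 to 985 CPM (median 889.5) in anemic mice, with 5 anemic mice above every control mouse, and it rose by 0.45 ± 0.10 (adjusted p = 0.00105). Within both kinds the estimate of Hadh was below 0, and in the other clusters it was called lower, as described further on. The thiolase Acaa2, which closes the cycle, was at 491 to 569 CPM (median 527) in control mice and 598 to 794 CPM (median 745) in anemic mice and rose by 0.45 ± 0.09 (adjusted p = 5.30e-04) without overlap. Echs1 and Acaa2 were called in neither kind, and Hadhb kept its call in the other clusters alone.

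The 3 members of electron transfer, which carry electrons from the acyl-CoA dehydrogenases to ubiquinone, all rose without overlap of the groups. Etfa was at 649.6 to 828 CPM (median 735) in control mice and 973 to 1286 CPM (median 1111) in anemic mice, with 0.62 ± 0.09 (adjusted p = 3.24e-05). Its partner Etfb was at 810.1 to 1033 CPM (median 864) in control mice and 1528 to 1759 CPM (median 1608) in anemic mice, with 0.84 ± 0.09 (adjusted p = 1.02e-06). Etfdh, the oxidoreductase of the inner membrane, was at 145 to 182 CPM (median 154) in control mice and 226 to 284 CPM (median 264) in anemic mice, with 0.73 ± 0.09 (adjusted p = 3.54e-06). Within the kinds none of the 3 was called.

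Of the peroxisomal members, the bifunctional enzyme Ehhadh was at 108 to 157 CPM (median 139) in control mice and 49.5 to 106 CPM (median 86.9) in anemic mice, without overlap, and fell by 0.65 ± 0.14 (adjusted p = 7.41e-04) on the log2 scale, and was not called within the kinds at -0.13 ± 0.13 (adjusted p = 0.651) and -0.22 ± 0.18 (adjusted p = 0.483). The thiolases Acaa1a (0.13 ± 0.10, adjusted p = 0.273) and Acaa1b (-0.06 ± 0.24, adjusted p = 0.841) were not called. Acaa1b was spread widely in anemia, from 234 to 809 CPM, where anemic mice 3 and 2 were the lowest. Bdh1, which forms 3-hydroxybutyrate, was at -0.10 ± 0.13 (adjusted p = 0.528).

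Pdk4, the kinase that shuts pyruvate out of oxidation when fat is burned, had the largest change of the members in the summed class. It was at 124 to 226 CPM (median 184) in control mice and 57.3 to 94.6 CPM (median 59.9) in anemic mice, without overlap, and fell by 1.46 ± 0.16 (adjusted p = 9.83e-07). Within the kinds it was not called, at -0.51 ± 0.16 (adjusted p = 0.0547) in the mitochondria-rich cluster and -0.02 ± 0.32 (adjusted p = 0.982) in the others. Acsl1, the long-chain acyl-CoA synthetase, was at 459 to 642 CPM (median 507) in control mice and 213 to 475 CPM (median 394) in anemic mice and fell by 0.53 ± 0.16 (adjusted p = 0.00784), with 5 anemic mice below every control mouse, and was at -0.07 ± 0.17 (adjusted p = 0.881) and -0.21 ± 0.13 (adjusted p = 0.330) within the kinds. The thioesterases were not called, with Acot1 at 0.31 ± 0.29 (adjusted p = 0.382) and Acot2 at -0.41 ± 0.20 (adjusted p = 0.0889).

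Plin5, which tethers droplets to mitochondria, was at 16.4 to 28 CPM (median 22.7) in control mice and 32.9 to 56.5 CPM (median 51.4) in anemic mice and rose by 1.11 ± 0.15 (adjusted p = 1.17e-05), and Plin2, the coat found on droplets of most cells, was at 199.7 to 276 CPM (median 242) in control mice and 163 to 242 CPM (median 179) in anemic mice and fell by 0.37 ± 0.12 (adjusted p = 0.0125), the former without overlap and the latter with 5 anemic mice below every control mouse. Within the kinds Plin2 was not called, at -0.21 ± 0.13 (adjusted p = 0.426) and -0.16 ± 0.14 (adjusted p = 0.490), and it lost its call with at most 10% mitochondrial UMIs, while Plin5 was called in the other clusters alone. The regulators Ppara (-0.01 ± 0.12, adjusted p = 0.949) and Ppargc1a (0.02 ± 0.21, adjusted p = 0.933) and the targets Angptl4 (0.11 ± 0.20, adjusted p = 0.659), Vnn1 (-0.13 ± 0.27, adjusted p = 0.704) and Fgf21 (-0.45 ± 0.34, adjusted p = 0.278) were not called, and these p-values do not show that their levels were alike.

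The hepatocyte-like class was a mix of clusters of different kinds whose proportions differed between the groups. Cluster 9, led by Apob and Cps1, held 3711 cells with a median of 3389 UMIs, of which 15.8% were mitochondrial, and 35.6% of its cells were called doublets. The other 4 clusters held 14310 cells with a median of 1017 UMIs, 1.74% mitochondrial and 5.46% doublets. The mitochondria-rich cluster made up 28.6 to 37.5% of the hepatocyte-like cells of control mice and 8.87 to 16.2% of those of anemic mice, and 52.3 to 62.6% against 15.4 to 29% of their UMIs. The groups did not overlap in either share. These shares are given as a description, since the genes that define the clusters also differed between the groups.

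The members differed between the kinds in control mice. In all 6 control mice, 13 members were higher in the other clusters (Acadl at 1066 against 263 CPM in the mitochondria-rich cluster, Etfb at 1614 against 518, Hadh at 1169 against 336, Cpt2 at 136 against 63.7), and 9 were higher in the mitochondria-rich cluster (Pdk4 at 371 against 12.7 CPM, Ppargc1a at 63.2 against 7.34, Ehhadh at 242 against 53.2, Acsl1 at 896 against 232, Plin2 at 376 against 147). For the remaining 9 the mice overlapped. No share over all genes is given for this split, so it is not read as particular to the members. The nuclear RNA Malat1 had a median of 14806 CPM in the mitochondria-rich cluster and 2061 CPM in the others in control mice. From the summed class alone, a shift in the mix of kinds and a change within a kind cannot be told apart, so each kind was also fitted by itself, a choice made after seeing the data.

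**Figure D3:**
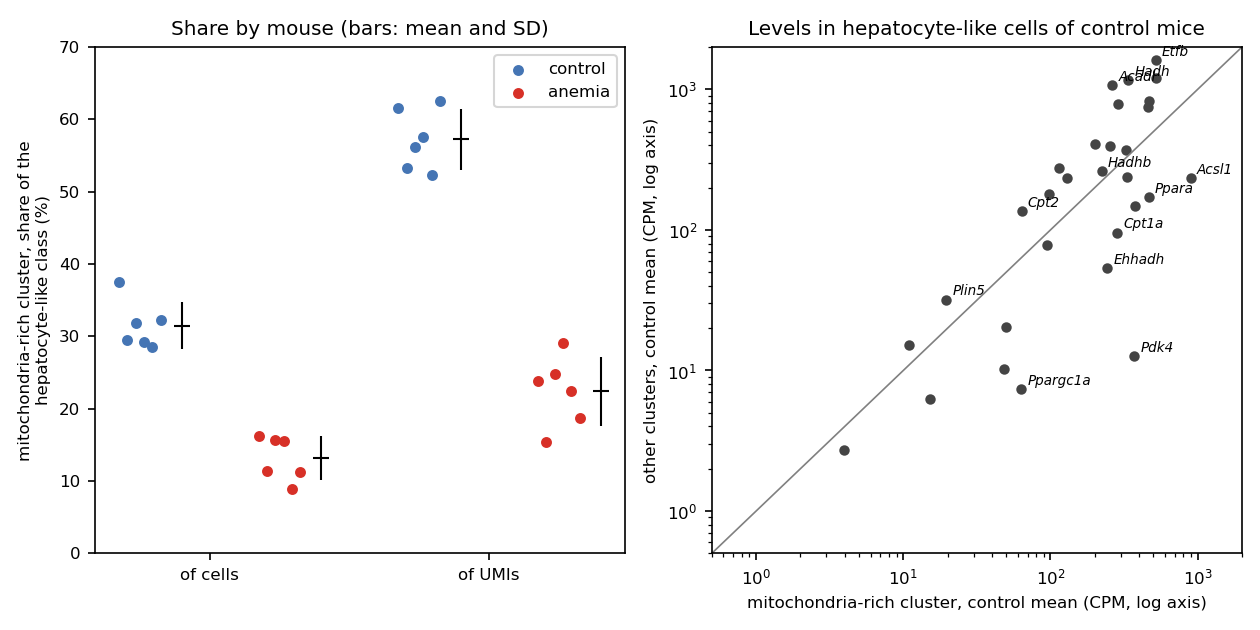
Left, the share (%) of the mitochondria-rich cluster in the hepatocyte-like cells and UMIs of each of the 6 control and 6 anemic mice, with mean and SD, which is 28.6 to 37.5% of cells in control and 8.87 to 16.2% in anemic mice. Right, the mean control level of each member in the mitochondria-rich cluster (x) and in the other clusters (y) in CPM on log axes with the line of equal levels, where Pdk4 lies far below the line at 371 against 12.7 CPM and Acadl above it at 263 against 1066 CPM.

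Most members called in the summed class were not called in either kind. Each kind held fewer UMIs than the sum, and the part of depth in the lost calls was not tested. The mitochondria-rich cluster had 302 to 459 cells per control mouse and 81 to 336 per anemic mouse. The median UMIs of these cells were 2957.5 to 5013 in control and 1962 to 3702 in anemic mice. In the mitochondria-rich cluster, 1 of 29 tested members was called, beside 7.15% of all genes (4.06% higher, 3.09% lower), with 7 members at an unadjusted p below 0.05 and 4 called by DESeq2 (Acot1 and Plin4 were not tested). It was Ppargc1a, the coactivator of mitochondrial biogenesis, at 42.6 to 79 CPM (median 62.8) in control mice and 49.9 to 142 CPM (median 103) in anemic mice, with 0.75 ± 0.17 (adjusted p = 0.00792). Its groups overlapped. Hadhb (0.35 ± 0.11, adjusted p = 0.0566), Pdk4 (-0.51 ± 0.16, adjusted p = 0.0547) and Bdh1 (-0.45 ± 0.14, adjusted p = 0.0500) came closest to the threshold. Over the spiral and electron transfer the 12 members had a median log2 fold change of 0.06, from -0.22 to 0.35, where the summed class had 0.65, from 0.03 to 0.84. For counts at an unadjusted p, here and below, no share over all genes is given, and they are not read as results. The same holds for counts by DESeq2 or limma within the kinds and in classes other than hepatocyte-like.

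In the other clusters, 7 of 30 tested members were called beside 12.4% of all genes (7.12% higher, 5.31% lower), 10 had an unadjusted p below 0.05 and DESeq2 called 6. Of these, 3 rose. Hadhb was at 225 to 284 CPM (median 257) in control mice and 255 to 414 CPM (median 356) in anemic mice, with 0.45 ± 0.11 (adjusted p = 0.0109). Plin5 was at 24.8 to 42.2 CPM (median 29.1) in control mice and 33.4 to 57.8 CPM (median 51) in anemic mice, with 0.60 ± 0.16 (adjusted p = 0.0217), and Angptl4, the secreted inhibitor of lipoprotein lipase, was at 7.52 to 14.1 CPM (median 9.81) in control mice and 11.8 to 19 CPM (median 16.1) in anemic mice, with 0.62 ± 0.19 (adjusted p = 0.0385). In each of the 3 the groups overlapped.

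The other 4 fell. Cpt1a was at 61.5 to 124 CPM (median 95.4) in control mice and 43.1 to 67.7 CPM (median 61.2) in anemic mice, a fall of 0.68 ± 0.14 (adjusted p = 0.00387). Acaa1a was at 149 to 206 CPM (median 176) in control mice and 106 to 151 CPM (median 130.1) in anemic mice, a fall of 0.45 ± 0.10 (adjusted p = 0.00460). Bdh1 was at 292 to 409 CPM (median 374) in control mice and 169 to 314 CPM (median 291) in anemic mice and fell by 0.46 ± 0.14 (adjusted p = 0.0373), and Hadh, which had risen in the summed class, was at 1032 to 1261 CPM (median 1140.4) in control mice and 718 to 1044 CPM (median 979) in anemic mice and fell by 0.34 ± 0.10 (adjusted p = 0.0371). All 4 had overlapping groups. The spiral and electron transfer had a median of -0.04, from -0.34 to 0.45. Hadhb, Plin5 and Cpt1a were called in the same direction in the summed class and in the sum of these clusters, and Pdk4 was not, at -0.02 ± 0.32 (adjusted p = 0.982).

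These clusters were themselves a mix whose parts differed between the groups. Cluster 15, led by Fabp1 and Uox, made up 10.4 to 19.3% of the hepatocyte-like cells of control mice and 20.6 to 43.5% of those of anemic mice, and cluster 16, led by Gnmt and Uox, 2.73 to 7.82% and 6.28 to 14.3%. Fitted 1 cluster at a time, clusters 10, 11, 15 and 16 gave 4, 1, 4 and 4 called members beside 7.77%, 6.32%, 5.51% and 4.39% of all genes. Hadhb in cluster 10 (0.37 ± 0.11, adjusted p = 0.0386) was the only one of these calls that was higher in anemia, and it was at 0.48 ± 0.15 (adjusted p = 0.0696), 0.41 ± 0.15 (adjusted p = 0.126) and 0.40 ± 0.13 (adjusted p = 0.0992) in clusters 11, 15 and 16. Plin5 was called in none of the 4, with estimates of 0.30 to 0.56, and Angptl4 was tested in cluster 10 alone, where it was not called at 0.76 ± 0.30 (adjusted p = 0.154). The members that were lower were Cpt1a in clusters 10, 11 and 15, Hadh in clusters 10, 15 and 16, Acaa1a in clusters 10 and 16, and Acaa1b and Bdh1 in clusters 15 and 16. The median log2 fold change of the members was between -0.22 and -0.11 in the 4 clusters, and that of all genes between -0.03 and -0.01.

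Markers of other cells and of RNA quality moved with the groups in the hepatocyte-like sums. The 9 erythroid markers summed to 1911 to 9165 CPM in control and 9596 to 32504 CPM in anemic mice, all 9 being higher in anemia. The 8 endothelial markers summed to 517 to 867 CPM in control and 100 to 321 CPM in anemic mice and the 8 stellate markers to 532 to 866 CPM in control and 34.6 to 196 CPM in anemic mice, with 0 of 8 higher in either list. Malat1 was at 7773 to 10233 CPM in control and 3581 to 5689 CPM in anemic mice. Across genes, which are not independent replicates, the log2 fold change of the summed class had a Spearman correlation of -0.48 with the genomic length of the gene (98% of the tested genes had a length), against -0.02 in the mitochondria-rich cluster and -0.22 in the others. The part of these in the results was not tested. With the globin genes left out of the counts all 18 calls were the same, but other erythroid RNA stays in the counts of the members. That fit therefore cannot show the part of erythroid RNA, and it does not bear on the other markers or on gene length. Without TMM scaling the median log2 fold change of all genes was -0.41 and 22.3% of called genes were higher, against 50.5% with it, and 9 members were higher and 12 lower.

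Hepatocyte-like cells were 5.64 to 8.65% of the cells of control mice (mean 7.78 ± 1.12, SD, n = 6) and 3.66 to 15.5% of those of anemic mice (9.97 ± 5.09, n = 6). The difference of 2.18 percentage points was within the spread between mice (two-sided exact permutation test, p = 0.318). The anemic mice were not alike. Mice 2 and 3 stood at 3.96% and 3.66%, below every control mouse, and the other 4 at 10.1 to 15.5%, above every control mouse. Anemic mice 2 and 3 also had the lowest median mitochondrial share in hepatocyte-like cells, 0.714% and 1.02%, against 2.21% or more in every other mouse, and without both the 18 member calls of the summed class were the same.

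Of 70 further genes of fatty acid oxidation, ketone bodies, PPAR signalling and lipid droplets, 63 were tested in hepatocyte-like cells and 39 were called, 26 higher and 13 lower, again beside 55.3% of all genes. With called doublets left out 15 were higher and 19 lower, beside 2560 higher and 2771 lower of 10732 genes tested. Of all called genes 48% were then higher, against 50.5% with doublets kept, and the turn is not read as particular to these genes. Among those with the smallest p were the pyruvate dehydrogenase kinases Pdk2 (1.53 ± 0.15, adjusted p = 5.09e-07) and Pdk1 (0.86 ± 0.13, adjusted p = 4.35e-05), the auxiliary enzymes of unsaturated chains Decr2 (0.69) and Eci1 (0.63), the α-oxidation enzyme Phyh (0.72), the triglyceride lipase Pnpla2 (0.91), the thioesterase Acot13 (0.74), the medium-chain synthetase Acsm3 (0.76), the transcription factor Creb3l3 (-0.60), the corepressor Ncor1 (-0.50) and the thioredoxin inhibitor Txnip (-0.76), each as a log2 fold change. Of these 11, Pdk2 and Pdk1 were called in both kinds as well, Pdk2 at 1.38 and 0.86 and Pdk1 at 0.72 and 1.07 in the mitochondria-rich cluster and the others, and Creb3l3 was called in the others alone, at -0.30 and -0.74. The remaining 8 were called in neither kind. In the same order they were at 0.02 and 0.03 for Decr2, -0.17 and -0.08 for Eci1, 0.24 and -0.01 for Phyh, 0.11 and 0.38 for Pnpla2, 0.06 and -0.05 for Acot13, 0.40 and 0.23 for Acsm3, -0.18 and -0.18 for Ncor1 and -0.28 and 0.39 for Txnip.

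Within the kinds, 10 of 63 further genes were called in the mitochondria-rich cluster (6 higher, 4 lower, beside 7.15% of all genes) and 21 of 61 in the other clusters (6 higher, 15 lower, beside 12.4%). In both kinds 5 were higher (Pdk1, Pdk2, Lpin1, Lpin2, Cyp4a14) and 4 lower (Crot, Acot3, Fitm1, Ucp2). No share over all genes called in both kinds is given, so these counts are not read as particular to the pathway. The genes described next were chosen after their values were seen. Lpin1, a phosphatidate phosphatase that also serves as a coactivator of PPARα, was in the mitochondria-rich cluster at 16.6 to 24.4 CPM (median 22.8) in control mice and 49.1 to 161 CPM (median 71.3) in anemic mice, without overlap, with 1.83 ± 0.22 (adjusted p = 1.64e-05), and in the others at 1.09 ± 0.33 (adjusted p = 0.0390). Crot, which makes medium-chain acylcarnitine in peroxisomes, was in the other clusters at 901 to 1600.3 CPM (median 1419) in control mice and 397 to 663 CPM (median 641) in anemic mice, without overlap, and fell by 1.16 ± 0.15 (adjusted p = 3.95e-05), and by 0.69 ± 0.12 (adjusted p = 7.06e-04) in the mitochondria-rich cluster.

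Of the ω-hydroxylases of the PPARα target family Cyp4a, Cyp4a14 rose by 0.95 ± 0.21 (adjusted p = 0.00690) and 0.88 ± 0.21 (adjusted p = 0.00808) in the mitochondria-rich cluster and the others, and Cyp4a10 by 0.91 ± 0.23 (adjusted p = 0.0170) in the former, without a call in the latter at 0.79 ± 0.28 (adjusted p = 0.0803). The Cyp4a genes are close copies of each other, so their counts can be split between them in an uncertain way.

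In endothelial-like cells (26685 cells, with 8 endothelial markers summing to 10644 to 11721 CPM in control and 8099 to 11497 CPM in anemic mice), the secreted lipase inhibitor Angptl4 was several times higher in anemia, Pdk4, Plin2 and Etfdh were higher, and Cpt1a was lower. These were the 5 members called of 29 tested (Vnn1 and Fgf21 were under the minimum), beside 17.3% of 17125 genes (7.46% higher, 9.85% lower). The median log2 fold change was -0.01 over the members and 0.01 over all genes, 8 members had an unadjusted p below 0.05, and DESeq2 called 6 and limma with quality weights 7.

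Angptl4 (ENSMUSG00000002289, chr17:33773750-33781830, GRCm38) was at 5.27 to 9.17 CPM (median 8.43) in control mice and 31.1 to 54.3 CPM (median 45) in anemic mice. The lowest anemic mouse was above the highest control mouse, and the log2 fold change was 2.45 ± 0.16 (adjusted p = 1.01e-06). Pdk4 (ENSMUSG00000019577, chr6:5483351-5496309) was at 69.5 to 82 CPM (median 73.4) in control mice and 93.8 to 142 CPM (median 114) in anemic mice, also without overlap, with 0.62 ± 0.09 (adjusted p = 7.94e-04). Plin2 (ENSMUSG00000028494, chr4:86648386-86670060) was at 68.2 to 79.1 CPM (median 73.7) in control mice and 79.8 to 153 CPM (median 91.2) in anemic mice, with 0.45 ± 0.14 (adjusted p = 0.0374). For Plin2 the groups were parted by less than 1 CPM.

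Etfdh was at 17.3 to 22.5 CPM (median 19.3) in control mice and 20.7 to 26.3 CPM (median 24.1) in anemic mice and rose by 0.29 ± 0.09 (adjusted p = 0.0343), with overlap. Cpt1a (ENSMUSG00000024900, chr19:3322334-3385733) was at 53 to 59.3 CPM (median 56.5) in control mice and 42.5 to 53.9 CPM (median 44.4) in anemic mice, with the highest anemic mouse inside the control range, and fell by 0.30 ± 0.07 (adjusted p = 0.00834). Ppara itself was at 10.2 to 17 CPM (median 14.6) in control mice and 3.88 to 12.7 CPM (median 9.38) in anemic mice and missed the threshold at -0.65 ± 0.22 (adjusted p = 0.0552). The promoters of Pdk4, Plin2, Etfdh and Cpt1a are those printed above. Leaving out 1 mouse at a time, Angptl4, Pdk4 and Cpt1a were called every time, whereas Etfdh lost its call in 9 and Plin2 in 7 of 12 runs, with log2 fold changes of 0.26 to 0.30 and 0.43 to 0.48 in those runs. Both were lost without anemic mouse 3 or 5 or control mouse 1, 2, 4, 5 or 6, and Etfdh also without anemic mouse 2 or 6. With summed Y-linked expression as a covariate Etfdh and Plin2 also lost their calls.

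**Figure D4:**
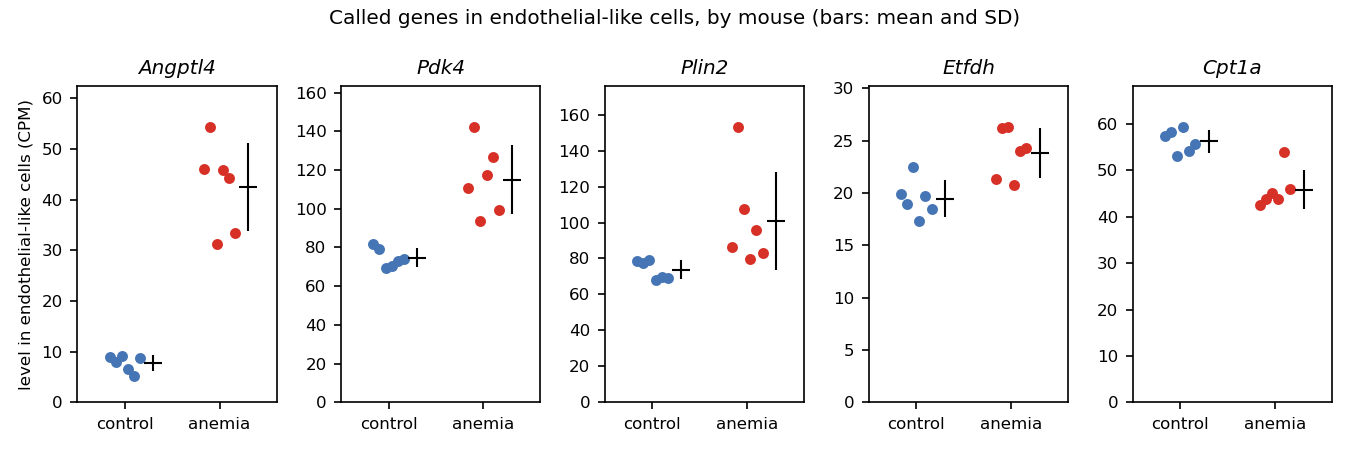
CPM per mouse in endothelial-like cells for the 5 members called there, with the mean and SD of each group of 6 mice. Angptl4 is at most 9.17 CPM in control mice and at least 31.1 CPM in anemic mice, and the other 4 lie closer together.

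The endothelial-like class also held clusters whose shares differed. Cluster 1 made up 11.7 to 22.8% of the class in control and 34.1 to 46.2% in anemic mice, and cluster 25 52.1 to 55% and 14.8 to 29.9%. Angptl4 rose in both, by 2.50 ± 0.21 (adjusted p = 2.06e-06) in cluster 1 and 2.59 ± 0.18 (adjusted p = 1.70e-08) in cluster 25, and so did Plin2, by 0.43 ± 0.14 (adjusted p = 0.0453) and 0.33 ± 0.10 (adjusted p = 0.0285). Pdk4 was called in cluster 1 at 0.72 ± 0.09 (adjusted p = 1.04e-04) and not in cluster 25 at 0.27 ± 0.11 (adjusted p = 0.114). Cpt1a was at -0.34 ± 0.10 (adjusted p = 0.0283) and -0.27 ± 0.10 (adjusted p = 0.0865), and Etfdh at 0.45 ± 0.11 (adjusted p = 0.0103) and 0.16 ± 0.15 (adjusted p = 0.508). In all, 8 of 27 members were called in cluster 1 beside 16% of all genes (the others were Ppara at -0.82, Acadvl at 0.38 and Etfa at 0.26), and 2 of 27 in cluster 25 beside 14.9%.

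In the endothelial-like sums the hepatocyte markers were at 2650.1 to 4582 CPM in control and 617 to 2882 CPM in anemic mice and the erythroid markers at 1041 to 3285 CPM in control and 4650.3 to 9729 CPM in anemic mice, and Malat1 was at 31599 to 34533 CPM in control and 28402 to 37669 CPM in anemic mice. The hepatocyte markers were lower in anemia for 9 of 10 genes. In the same sums Angptl4, Pdk4, Plin2 and Etfdh were higher and Cpt1a was lower, and the estimates of Ppara (-0.65), Bdh1 (-0.51), Acaa1b (-0.72) and Ehhadh (-0.34) were below 0 without being called. The part of hepatocyte RNA in these values was not tested. With globin genes left out of the counts the 5 calls were the same, but other erythroid RNA stayed in the counts and its part was not tested.

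The remaining 12 classes gave 0 called members by edgeR, with 43 pairs of a class and a member at an unadjusted p below 0.05. No share over all genes is given at the unadjusted threshold, so the 43 pairs are not read as a result. DESeq2 called 4 (Hadh in B-like and neutrophil-like cells, Bdh1 and Hadhb in macrophage-like cells) and limma with quality weights 2 (Etfb in T-like and Acaa1b in monocyte-like cells). In each of these classes the hepatocyte markers, as a share of their hepatocyte-like level, were lower in anemia. Outside hepatocyte-like cells, the lowest control levels of Hadh, Bdh1 and Acaa1b were near or below what hepatocyte RNA would give. The part of hepatocyte RNA in their calls was not tested, and the calls of Hadh, Bdh1 and Acaa1b are not read as changes in those cells. Over all genes, 3.28% were called in macrophage-like, 1.79% in B-like, 0.892% in dendritic-like, 0.914% in monocyte-like, 0.483% in pre-B-like and 0.869% in T-like cells. The share was 0.315% in stellate-like, 0.309% in neutrophil-like, 0.278% in erythroid-like, 0.238% in NK-like, 0.131% in basophil-mast-like and 0.0309% in cholangiocyte-like cells. Angptl4 was not called outside endothelial-like cells in any whole class, with 0.08 ± 0.24 (adjusted p = 0.975) in stellate-like, -0.26 ± 0.35 (adjusted p = 0.699) in macrophage-like and 0.07 ± 0.28 (adjusted p = 0.914) in B-like cells.

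Closest to the threshold were Hadhb in macrophage-like cells, at 49 to 66 CPM (median 55.4) in control mice and 60.6 to 88.5 CPM (median 71.7) in anemic mice, with 0.41 ± 0.11 (adjusted p = 0.0517), and Hadh in B-like cells, at 65.9 to 86.4 CPM (median 71) in control mice and 42.7 to 62 CPM (median 59.3) in anemic mice, with -0.39 ± 0.10 (adjusted p = 0.0551). The macrophage-like class was made up of different clusters in the groups, with 6481 of 11689 control and 3045 of 10127 anemic cells in cluster 2, led by Clec4f and Cd209f, and 459 and 2965 in cluster 3, led by Serpinb2 and Prg4. The groups overlapped for Hadhb, and for Hadh all 6 anemic mice were below the controls. Outside hepatocyte-like cells, the estimate for Bdh1 was below 0 in all 12 classes where it was tested and that for Acaa1b in all 10, with 5 and 6 of them at an unadjusted p below 0.05 and smallest adjusted p of 0.0859 and 0.116. The level of the hepatocyte markers, as a share of that in hepatocyte-like cells, was also lower in anemia in 11 of the 12 classes outside hepatocyte-like and endothelial-like cells. Its part in these estimates, and in that for Hadh in B-like cells, was not tested. Anemic mice 2 and 3 were lowest for Acaa1b in NK-like cells (1.72 and 1.85 CPM, other anemic mice 10.85 to 28.1 CPM). They were also lowest in B-like cells (3.29 and 0.902 CPM, other anemic mice 8.35 to 20.9 CPM).

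**Figure D5:**
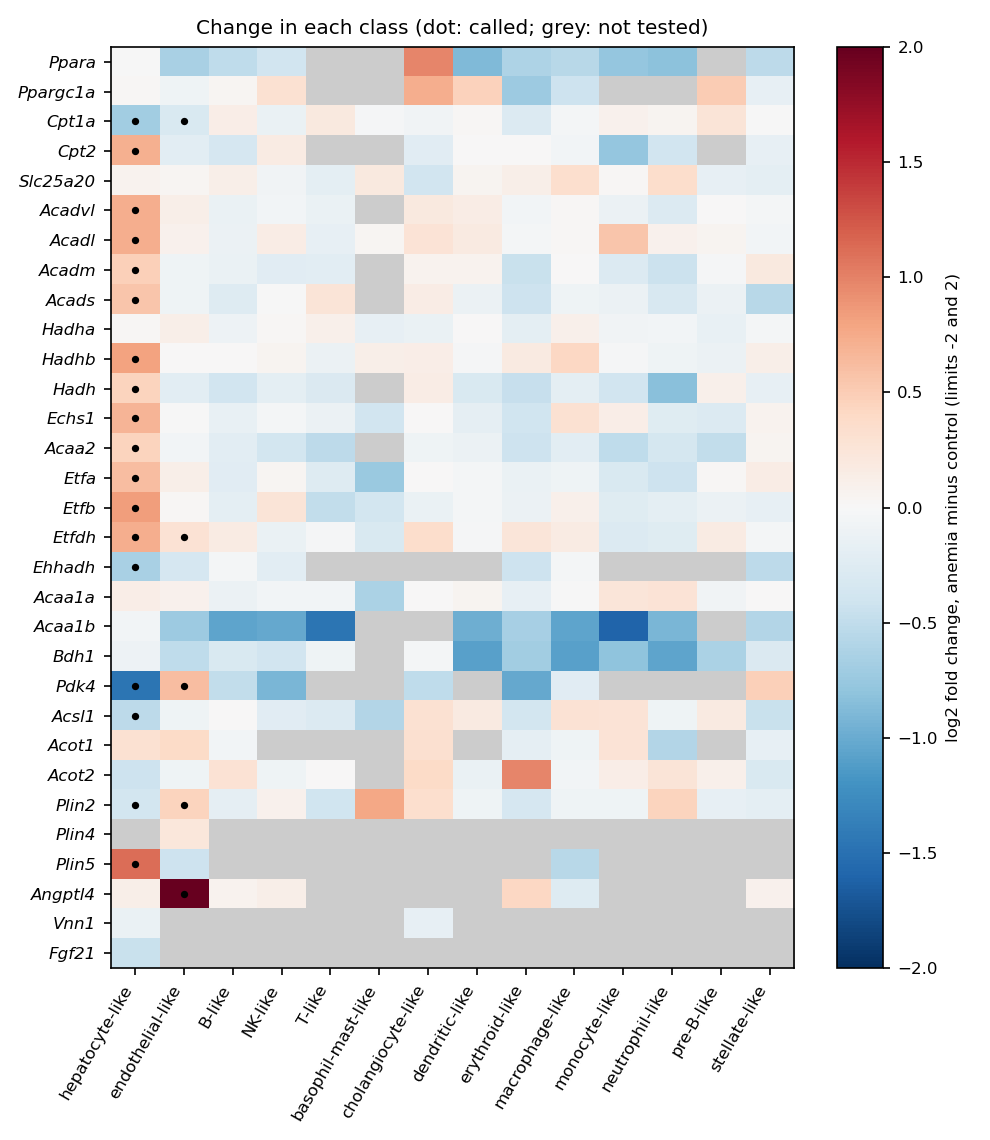
Log2 fold change (anemia over control) of each member in each class, with a dot on called pairs and untested pairs in grey. Colours are limited to 2 in either direction, and Angptl4 in endothelial-like cells, at 2.45, lies beyond them.

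The change in anemia was compared between the hepatocyte-like and endothelial-like sums as an interaction of group and class with the mouse as a block. The cluster mix of both classes differed between the groups, and only the hepatocyte-like side is split below. The difference of log2 fold changes, hepatocyte-like minus endothelial-like, was called for 21 of 28 members beside 51.4% of all genes. It was -2.25 ± 0.21 (adjusted p = 4.07e-07) for Angptl4, -1.99 ± 0.16 (adjusted p = 1.45e-07) for Pdk4, -0.71 ± 0.12 (adjusted p = 5.62e-05) for Plin2 and 1.55 ± 0.29 (adjusted p = 2.36e-04) for Plin5. With the mitochondria-rich cluster in place of the class, 6 were called beside 8.01% of genes, and with the other clusters 5 beside 7.22%. Ppara (0.74 and 0.97), Hadhb (0.40 and 0.46), Plin2 (-0.56 and -0.57) and Angptl4 (-1.84 and -1.80) were called against both kinds. Pdk4 was at -1.09 (adjusted p = 3.74e-04) against the mitochondria-rich cluster and -0.64 (adjusted p = 0.208) against the others, and Plin5 at 0.75 (adjusted p = 0.153) and 1.01 (adjusted p = 0.0415). The 21 include Acaa1b, Bdh1 and Ppara, whose levels in endothelial-like cells of control mice were 1.09, 1.14 and 2.28 times what hepatocyte RNA would give, where the hepatocyte markers stood lower in anemia. The differences of Acaa1b and Bdh1 are therefore not read as effects in endothelial-like cells, and for Ppara and for Acsl1, at 2.29 times, the part of hepatocyte RNA was not tested.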

How the data were processed

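Single-cell UMI counts were deposited by the authors as 1 filtered matrix per mouse (6 control, 6 anemic), written by Cell Ranger 7.0.0 per the file headers and mapped to mm10 per the submitters' processing notes, with replicates kept apart. The labels and the methods name different kit versions.

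Barcodes outside 500 to 50000 UMIs or above 50% mitochondrial UMIs were removed. Counts were log-normalized, 2000 variable genes gave 20 principal components, and Leiden clusters (resolution 2, 20 neighbours; scanpy 1.11.5) were named from at least 3 fixed markers. Doublets were scored against simulated doublets at 0.8% per 1000 cells and kept in the main result. Mitochondrial and ribosomal protein genes were dropped, UMIs were summed per mouse and class, and genes that averaged 5 or more UMIs across the mice were tested with edgeR 4.0.16 (TMM, quasi-likelihood, two-sided, Benjamini-Hochberg over all genes of the class, 0.05) in R 4.3.3. CPM in the text use TMM library sizes, except levels across classes and kinds of control mice, which use plain totals. The step was tested on simulated data. Depth per class and mouse set the precision: hepatocyte-like sums held 1415052 to 4582178 UMIs and endothelial-like sums 6205845 to 17953610.

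Alternatives were DESeq2 1.42.0, limma 3.58.1 with quality weights, no TMM, other filters, a replicate block, summed Y-linked expression as a covariate, globin genes or doublets left out, at most 10% mitochondrial UMIs, resolution 1 and each mouse left out. Fits of single clusters and kinds, of cells with at least 1000 UMIs, and without anemic mice 2 and 3 were added after seeing the data. The members and lists were chosen with earlier results of these data known. Values per mouse are given for members called in hepatocyte-like cells and in other classes, and further pathway genes are named at most 12 in order of p, with exceptions stated and some items not reported here. Promoters came from RefSeq (GRCm38.p6, 28 of 31 members matched by symbol) and gene positions from GENCODE on GRCm38, where all gene identifiers matched.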

Additional observations from a re-analysis of the deposited data

Results flagged for a closer look

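Single mice stood apart from the rest of their group in 6 of the 48 groups of 6 mice checked, where chance gives about 1 in 20. In hepatocyte-like cells these were control mouse 3 for Acads (213.9 CPM, the next at 169.8), control mouse 6 for Acsl1 (642 CPM, the next at 521), anemic mouse 4 for Pdk4 (94.6 CPM, the next at 64.5) and anemic mouse 2 for Plin2 (242 CPM, the next at 188). In endothelial-like cells it was anemic mouse 5 for Cpt1a (53.9 CPM, the next at 45.9). Control mouse 2 had the lowest share of hepatocyte-like cells among controls (5.64%).

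The log2 fold change differed between the hepatocyte-like and endothelial-like sums for 21 members by the interaction test in edgeR at an adjusted p below 0.05. The differences, hepatocyte-like minus endothelial-like log2 fold change, were Ppara 0.71, Cpt1a -0.34, Cpt2 1.00, Acadvl 0.67, Acadl 0.72, Acadm 0.63, Acads 0.72, Hadhb 0.88, Hadh 0.71, Echs1 0.75, Acaa2 0.57, Etfa 0.57, Etfb 0.88, Etfdh 0.51, Acaa1b 0.86, Bdh1 0.50, Pdk4 -1.99, Acsl1 -0.41, Plin2 -0.71, Plin5 1.55, Angptl4 -2.25. Over all genes 51.4% were called in this test, and the share of the members is not read as particular to them. The sign was negative for Cpt1a, Pdk4, Acsl1, Plin2 and Angptl4 and positive for the other 16. Acaa1b and Bdh1 in endothelial-like cells were near the level that hepatocyte RNA would give, at 1.09 and 1.14 times in control mice, so their differences are not read as effects in those cells, and for Ppara and Acsl1, at 2.28 and 2.29 times, the part of hepatocyte RNA was not tested. The mix of kinds in the hepatocyte-like sums differed between the groups, and against each kind alone 6 members were called with the mitochondria-rich cluster (beside 8.01% of all genes) and 5 with the other clusters (beside 7.22%).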

How the results depend on the processing

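The 18 calls of members in hepatocyte-like cells held under DESeq2, limma with quality weights, the replicate block (18 calls), the Y-linked covariate, globin removal, the stricter filter, no filter, resolution 1, cells of at least 1000 UMIs and the fit without anemic mice 2 and 3, and leaving out 1 mouse at a time gave 18 to 19. They did not hold within kinds: the mitochondria-rich cluster alone gave 1 and the other clusters 7 (3 higher and 4 lower, and clusters 10, 11, 15 and 16 alone 4, 1, 4 and 4, all lower but Hadhb in cluster 10), with directions turned for Acadl (-0.02), Acadm (-0.01), Acads (-0.04) and Hadh (-0.22) in the former and for Acaa2 (-0.08), Acadl (-0.10), Acadm (-0.03), Acads (-0.13), Echs1 (-0.04), Etfa (-0.05) and Hadh (-0.34) in the latter. With at most 10% mitochondrial UMIs, Acsl1, Ehhadh, Hadh and Plin2 lost their calls, without TMM Acaa2, Acadm, Acads and Hadh did, and without doublets Hadh did. The 39 further pathway genes became 10 in the mitochondria-rich cluster and 21 in the others, 34 without doublets (15 higher and 19 lower, against 26 and 13), and 35 to 41 when 1 mouse was left out. Of all genes called in hepatocyte-like cells without doublets 48% were higher, against 50.5% as reported. The 5 calls outside hepatocyte-like cells became 10 with DESeq2, 9 with limma, 9 with no filter, 3 with the Y-linked covariate, 11 without doublets and 3 to 9 when 1 mouse was left out (3 without anemic mouse 3 or control mouse 1, 4, 5 or 6, and 9 without anemic mouse 6). No share over all genes is given for these classes under these settings, so the changes in count are not read as particular to the members. Of the endothelial-like calls, Etfdh and Plin2 were lost without TMM or with the Y-linked covariate and Etfdh without doublets or without anemic mice 2 and 3. The interaction count of 21 became 6 and 5 with the kinds and 20 to 21 when 1 mouse was left out. The difference in hepatocyte-like share was 1.07 to 3.44 percentage points when 1 mouse was left out and 4.89 without erythroid-like cells, with exact permutation p from 0.0952 to 0.589 over its alternatives. The cause was not tested. Depth limits Plin4, Acot1, Vnn1 and Fgf21, which had few UMIs.

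With the replicate number as a block, the counts were 18 members and 40 further genes in hepatocyte-like cells and 8 members in the other classes. Mice that share a number did not deviate together in every pair (correlations from -0.10 to 0.26). For replicates 1 and 4 the best match had the same number in both hepatocyte-like and endothelial-like cells. Low correlations cannot exclude a pairing, so this check does not decide whether the numbers pair the mice.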

Other observations

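In endothelial-like cells, 16 of the 69 further pathway genes tested were called beside 17.3% of all genes, 7 higher and 9 lower. They are named here after their values were seen. Higher in anemia were the receptor Pparg, at 30.7 to 45.4 CPM (median 36.8) in control mice and 79.4 to 119 CPM (median 86.9) in anemic mice, with 1.28 ± 0.11 (adjusted p = 7.49e-06 by edgeR), the hypoxia-inducible lipase inhibitor Hilpda (0.75 ± 0.19, adjusted p = 0.0150), the kinase Pdk1 (0.69 ± 0.08, adjusted p = 1.10e-04), the triglyceride lipase Pnpla2 (0.67 ± 0.19, adjusted p = 0.0304), its coactivator Abhd5 (0.28 ± 0.07, adjusted p = 0.0147), the hormone-sensitive lipase Lipe (0.61 ± 0.15, adjusted p = 0.0155) and the ketone-using enzyme Oxct1 (0.27 ± 0.07, adjusted p = 0.0249). Lower were Cpt1c (-0.64), Crot (-0.31), the thioesterases Acot3 (-1.53), Acot8 (-0.29) and Acot13 (-0.27), Creb3l3 (-0.96) and the droplet-fusion proteins Cidea (-0.80), Cideb (-0.75) and Cidec (-1.27). Of the 10 hepatocyte markers, 9 had a lower mean in these sums in anemia, and their part in the lower genes was not tested.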
